A study of Mus musculus with 258 samples.

Results

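Insm1, Myt1, Myt1l, St18, Runx1t1 and Scrt1 are 6 genes for transcriptional regulators of endocrine and neuronal cells, and their transcripts were followed through endocrine differentiation of the embryonic mouse pancreas. They were taken by symbol from the deposited bulk and single-cell count tables, where each has 1 entry, and are 6 of the 40824 genes listed. For bulk RNA, 3 populations were sorted, each sequenced as 2 libraries. The first 2, Ngn3-low and Ngn3-high, are dorsal pancreas cells of mouse embryos at E13.5 that were separated by how brightly Ngn3-GFP, a reporter of the protein of Neurog3, shone in them. Ins1-RFP+ cells were sorted from E17.5 pancreas by a red reporter of the insulin gene Ins1, and the study treats them as nascent beta cells, so day and reporter change together in any comparison with them. Single cells of E13.5 dorsal pancreas came from 2 genotypes and 2 gates: 44 Ngn3-high and 69 Ngn3-low cells carried Pdx1-Cre and Jmjd3 fl/fl, and 59 Ngn3-high and 49 Ngn3-low cells were wild type (WT). Pdx1-Cre is a recombinase driven in pancreatic progenitors, and Jmjd3 is the histone H3K27 demethylase encoded by Kdm6b. Since no Cre is named for WT, Cre and the deletion cannot be told apart. No animals are named either, so each single-cell group is 1 sample and was not tested.

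Endocrine cells of the pancreas arise when progenitors of the trunk epithelium switch on Neurog3, which in turn activates a cascade of further transcription factors. Insm1 is a zinc finger repressor with an N-terminal SNAG domain, through which it recruits the Lsd1 and CoREST complex, and mice without it form endocrine precursors that mature poorly. Myt1, Myt1l and St18 (also called Myt3) are the vertebrate family of CCHC zinc finger factors, of which Myt1 is induced by Neurog3 and Myt1l is best known from neurons. Runx1t1, a corepressor also called Eto or Mtg8, is not itself a sequence-specific zinc finger factor of these families but carries a MYND zinc finger and binds NCoR, Sin3 and histone deacetylases. Scrt1 is a neuronal SNAG repressor related to Snai1.

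The 6 genes lie apart on 5 chromosomes of mouse build GRCm38, the build named mm10 in the submitters' processing notes. St18 spans chr1:6487231-6860940 and Runx1t1 spans chr4:13742628-13895056. Insm1 (chr2:146221997-146225020) and Myt1 (chr2:181763332-181827775) share a chromosome. Myt1l spans chr12:29527590-29923216 and Scrt1 spans chr15:76516203-76522129. All 6 are annotated as protein-coding. Promoter sequences of 2 of them, Myt1 and Myt1l, were matched in the RefSeq promoter table (GRCm38.p6), which covers 250 bases before to 50 after an annotated start. The most upstream listed window of each is shown, and which start these cells used was not measured. Capitals mark CANNTG, the E-box letters read by basic helix-loop-helix factors such as Neurog3 and Neurod1, and AAGTTT, the core of the motif bound by the Myt1 family, on either strand.
Myt1 promoter at chr2:181763082-181763381, + strand: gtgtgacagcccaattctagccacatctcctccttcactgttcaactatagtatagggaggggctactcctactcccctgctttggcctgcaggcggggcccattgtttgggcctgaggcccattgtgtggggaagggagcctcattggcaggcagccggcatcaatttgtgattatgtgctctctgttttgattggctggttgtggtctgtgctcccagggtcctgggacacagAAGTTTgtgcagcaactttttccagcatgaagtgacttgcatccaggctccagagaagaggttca
Myt1l promoter at chr12:29528134-29528433, + strand: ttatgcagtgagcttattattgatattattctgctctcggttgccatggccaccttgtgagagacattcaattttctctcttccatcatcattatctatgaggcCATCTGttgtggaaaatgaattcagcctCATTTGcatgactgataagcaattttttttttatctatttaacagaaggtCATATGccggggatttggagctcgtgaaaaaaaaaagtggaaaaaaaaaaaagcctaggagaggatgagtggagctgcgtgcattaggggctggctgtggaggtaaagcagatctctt

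The Myt1 window held 1 AAGTTT and 0 CANNTG, and the Myt1l window held 3 CANNTG and 0 AAGTTT. Among 32851 windows of 300 bases in the table, 72.3% held CANNTG and 14.4% held AAGTTT, so CANNTG is in most promoters. The other 2 Myt1 windows held 2 and 1 CANNTG and 0 and 1 AAGTTT. The other 4 Myt1l windows held 1, 0, 1 and 3 CANNTG and each 0 AAGTTT. No motif match overlapped one of the other motif. A match describes letters in the window and does not show that a factor binds there.

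Reads in genes numbered 11957415 to 17760214 per bulk library and 380478 to 1949839 per cell, with a median of 708409 per cell. The 2 libraries of each bulk population were not alike within counting error. Whether they came from separate litters is not stated, so the p-values cover the spread of these libraries alone, which may be technical. The sorts carried their reporters' genes. Neurog3 averaged 177 ± 22.8 CPM (a gene's reads scaled to the total in genes; SD, n = 2) in Ngn3-low, 1141 ± 71.6 CPM in Ngn3-high and 27.6 ± 0.854 CPM in Ins1-RFP cells, and Ins1 reached 27591 ± 7106 CPM in Ins1-RFP cells. Kdm6b stood at 107 CPM in Jmjd3-deleted and 265 CPM in WT Ngn3-high cells, and at 55.5 CPM in Jmjd3-deleted and 131 CPM in WT Ngn3-low cells. It was lower in the deleted cells in all 3 title numbers that the genotypes share in each gate. A title number is a number in the cells' sample titles, and nothing says whether it stands for an animal or a day. Reads outside the deleted part can remain in a deleted allele. In bulk, 11 markers of white blood cells summed to 3020 and 2511 CPM in the Ngn3-low libraries, 23.9 and 11.96 CPM in the Ngn3-high libraries and 79.7 and 136 CPM in the Ins1-RFP libraries. Endothelial markers, 10 in number, moved likewise, at 414 and 452 CPM in the Ngn3-low libraries, 9.25 and 5.85 CPM in the Ngn3-high libraries and 47.6 and 57.1 CPM in the Ins1-RFP libraries. Acinar markers summed to 22880 CPM in Ins1-RFP library 2 and to 1301 CPM in library 1. In single cells, the white blood cell markers summed to 6.21 CPM in deleted and 9.43 CPM in WT Ngn3-low cells.

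In the bulk libraries, transcripts of all 6 genes rose in Ngn3-high relative to Ngn3-low cells. Myt1, St18, Runx1t1 and Myt1l, low in the bulk Ngn3-low libraries, rose by 5.54 to 6.66 on the log2 scale. Insm1 rose above a clear base level, and Scrt1 rose within a handful of reads. By edgeR's quasi-likelihood test with Benjamini-Hochberg adjustment at 0.05 over 15684 genes, 6 of 6 were called higher, against 27.7% of all genes tested. All 6 passed the filter on low counts, but Myt1l passed only through the Ngn3-high and Ins1-RFP libraries and Scrt1 only through the Ins1-RFP libraries, where they are high, so counts over the 6 are a description. Without the filter, edgeR made the same number of calls among the 6 in each bulk comparison. The median log2 fold change of the 6 was 5.62, against -0.01 over all genes tested. In bulk RNA, fewer cells of a type and less RNA per cell cannot be told apart.

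Insm1, the SNAG repressor, had 573 and 921 CPM in the Ngn3-high libraries, against 77.6 and 98.7 CPM in the Ngn3-low libraries. Both Ngn3-high libraries lay above both Ngn3-low ones, although the Ngn3-high pair differed between themselves more than any other pair of this gene. The log2 fold change was 3.17 (SE 0.235, edgeR adjusted p = 9.10e-06), an 8.98-fold difference. Of the 6 genes, Insm1 was the most abundant in the bulk Ngn3-low libraries. In single Ngn3-low cells it stood lower, at 2.80 CPM in Jmjd3-deleted and 6.62 CPM in WT cells. The markers for neurons, neural crest and glia summed to 36.9 and 35.5 CPM in Ngn3-high and 259.96 and 247 CPM in Ngn3-low libraries, of which the single gene Ednrb made up 237 and 220.4 CPM in Ngn3-low. Of the 9 tested genes of that list 2 rose, Th and Foxd3, and 2 fell, Ednrb and S100b, in Ngn3-high against Ngn3-low cells. Over all 15684 genes tested, 4349 rose and 4729 fell, so these counts are near the background. The part of other cell types in the Ngn3-low level of Insm1 was not tested.

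The 3 genes of the Myt1 family rose together. Myt1 had 634 and 585 CPM in Ngn3-high libraries, against 6.53 and 6.22 CPM in Ngn3-low libraries, a log2 fold change of 6.66 (SE 0.162, edgeR adjusted p = 2.26e-07). The groups lay 101-fold apart in the fit, and the replicates lay close together. St18 had 215 and 249 CPM in Ngn3-high libraries, against 4.05 and 2.29 CPM in Ngn3-low libraries, a log2 fold change of 6.22 (SE 0.227, edgeR adjusted p = 4.30e-07). Myt1l had 7.53 and 11.1 CPM in Ngn3-high libraries, against 0.113 and 0.327 CPM in Ngn3-low libraries, where 2 and 4 reads were counted. The groups of St18 and of Myt1l did not overlap either. For Myt1l the log2 fold change was 5.54 (SE 0.392, edgeR adjusted p = 7.03e-06), and the ratio of summed reads was 45.1 with a 95% counting interval of 20.4 to 124.

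Runx1t1, the corepressor, had 183 and 229 CPM in Ngn3-high libraries, against 4.17 and 4.25 CPM in Ngn3-low libraries. The groups did not overlap, and the log2 fold change was 5.69 (SE 0.198, edgeR adjusted p = 3.72e-07). Scrt1 was counted with 5 and 6 reads in Ngn3-high libraries and with 1 read in each Ngn3-low library. Its log2 fold change of 2.46 (SE 0.795, edgeR adjusted p = 0.027) rested on these 13 reads, and the ratio of summed reads was 5.72 with a counting interval of 1.25 to 53.1. The Scrt1 call did not hold with DESeq2 (adjusted p = 0.119), nor without Ngn3-low library 1 (0.164), Ngn3-low library 2 (0.0936), Ngn3-high library 2 (0.123) or either Ins1-RFP library (0.0545 and 0.0539), all from edgeR. Over 10 alternative settings the adjusted p of Scrt1 ranged from 0.0315 to 0.164.

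**Figure D1:**
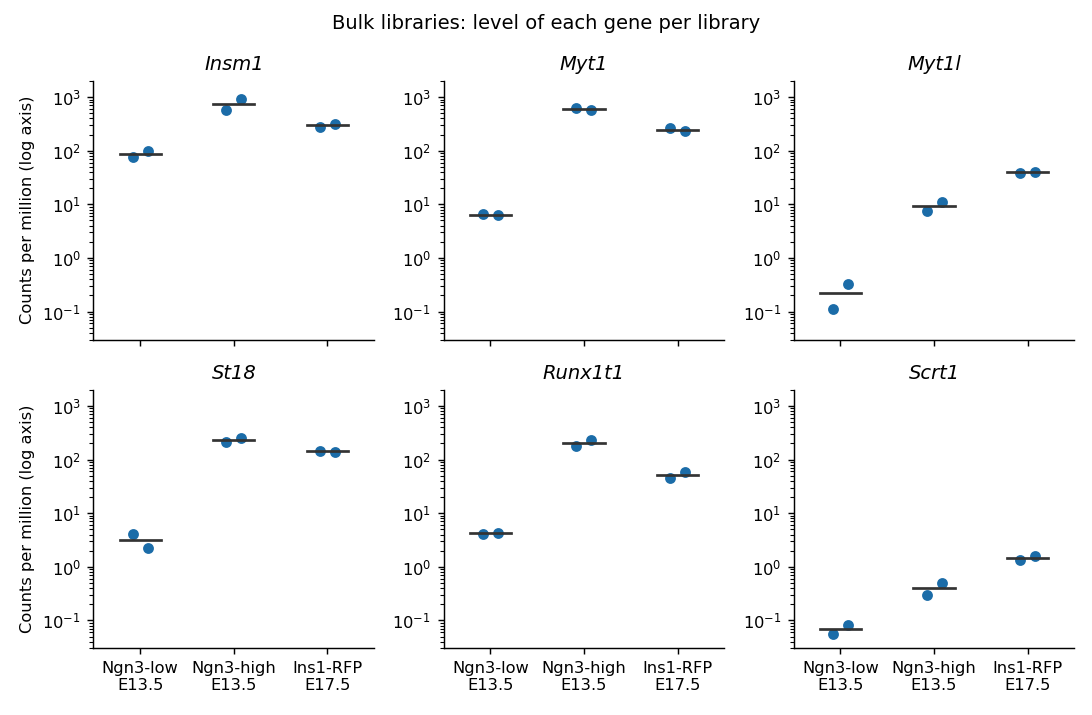
CPM (log axis) of each gene in each bulk library, in the order Ngn3-low, Ngn3-high and Ins1-RFP; dots are libraries and bars the mean of 2. Insm1, Myt1, St18 and Runx1t1 peak in Ngn3-high cells, whereas Myt1l and Scrt1 are highest in Ins1-RFP cells.

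In Ins1-RFP cells the 6 genes parted. Against Ngn3-high cells, Runx1t1, Insm1, Myt1 and St18 fell while Myt1l and Scrt1 rose. By edgeR, 4 of 6 were called lower, against 24.9% of all genes tested, and 2 of 6 were called higher, against 26.1%. Of the 2, Scrt1 entered the test only through the Ins1-RFP libraries, where it is high, whereas Myt1l passed the filter through both groups compared. The count with Scrt1 is thus a description, and without the filter edgeR again called 2 of 6 higher. All bulk comparisons share libraries with one another, so their values are given side by side and the relation between them was not tested.

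Runx1t1 fell the most of the 4, to 44.5 and 58.9 CPM in Ins1-RFP libraries, against 183 and 229 CPM in Ngn3-high libraries. Its log2 fold change was -1.91 (SE 0.157, edgeR adjusted p = 3.92e-05), a 3.77-fold difference. Insm1 had 276 and 317 CPM in Ins1-RFP libraries, against 573 and 921 CPM in Ngn3-high libraries, with a log2 fold change of -1.25 (SE 0.219, edgeR adjusted p = 0.00194). Its groups did not overlap, and the change was -0.88 to -1.53 over the alternative settings. Myt1 had 262 and 234 CPM in Ins1-RFP libraries, against 634 and 585 CPM in Ngn3-high libraries, with a log2 fold change of -1.21 (SE 0.124, edgeR adjusted p = 0.000116). St18 changed least, with 147 and 138 CPM in Ins1-RFP libraries, against 215 and 249 CPM in Ngn3-high libraries. The groups of Myt1 and St18 did not overlap. For St18 the log2 fold change was -0.62 (SE 0.167, edgeR adjusted p = 0.0146), and the call did not hold without Ngn3-high library 2 (-0.53, edgeR adjusted p = 0.0814).

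Myt1l, the member of the family best known from neurons, had 39.3 and 40.3 CPM in Ins1-RFP libraries, against 7.53 and 11.1 CPM in Ngn3-high libraries. Both Ins1-RFP libraries lay above both Ngn3-high ones, and the log2 fold change was 2.19 (SE 0.232, edgeR adjusted p = 0.000144), a 4.55-fold difference. Scrt1 was counted with 21 reads in each Ins1-RFP library (1.32 and 1.57 CPM), against 5 and 6 reads in the Ngn3-high libraries (0.297 and 0.502 CPM). Its log2 fold change was 1.95 (SE 0.496, edgeR adjusted p = 0.0114), with a ratio of summed reads of 3.75 and a counting interval of 1.90 to 8.08. The Scrt1 call did not hold with DESeq2 (adjusted p = 0.108), nor without Ngn3-high library 1 (0.114) or Ins1-RFP library 2 (0.0661), both from edgeR, so that 1 of 6 was then called higher. The marker list for neurons, neural crest and glia summed to 60.04 and 64.1 CPM in Ins1-RFP libraries, against 36.9 and 35.5 CPM in Ngn3-high libraries. Of its 9 tested genes 6 rose and 2 fell, against 26.1% and 24.9% of all genes tested. The 2 that fell were the neural crest genes Sox10, by 2.47 on the log2 scale (edgeR adjusted p = 0.000694), and Foxd3, by 3.30 (edgeR adjusted p = 0.0136). The gene with the highest level was Th, which codes for tyrosine hydroxylase, with 40.95 and 33.1 CPM in Ins1-RFP libraries, against 15.4 and 12.96 CPM in Ngn3-high libraries. The part of neural cells in the levels of Myt1l and Scrt1 was not tested.

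All 6 genes stayed above their Ngn3-low levels. In Ins1-RFP against Ngn3-low cells, 6 of 6 were called higher by edgeR, against 30.4% of all genes tested, with Myt1l and Scrt1 passing the filter only where they are high. The log2 fold change was 7.72 for Myt1l (SE 0.369, edgeR adjusted p = 8.42e-07), 5.60 for St18 (SE 0.224, edgeR adjusted p = 4.34e-07) and 5.44 for Myt1 (SE 0.155, edgeR adjusted p = 1.82e-07). It was 4.42 for Scrt1 (SE 0.656, edgeR adjusted p = 0.000438), 3.78 for Runx1t1 (SE 0.192, edgeR adjusted p = 1.11e-06) and 1.92 for Insm1 (SE 0.225, edgeR adjusted p = 0.000106). All 6 kept their call in every alternative setting run, with a highest adjusted p of 0.00965, for Scrt1. With total counts in place of the trimmed-mean (TMM) factors the median over all genes in this comparison was -0.24, against -0.08 with TMM, and the smallest change of the 6 was 1.75, for Insm1, over the alternatives.

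**Figure D2:**
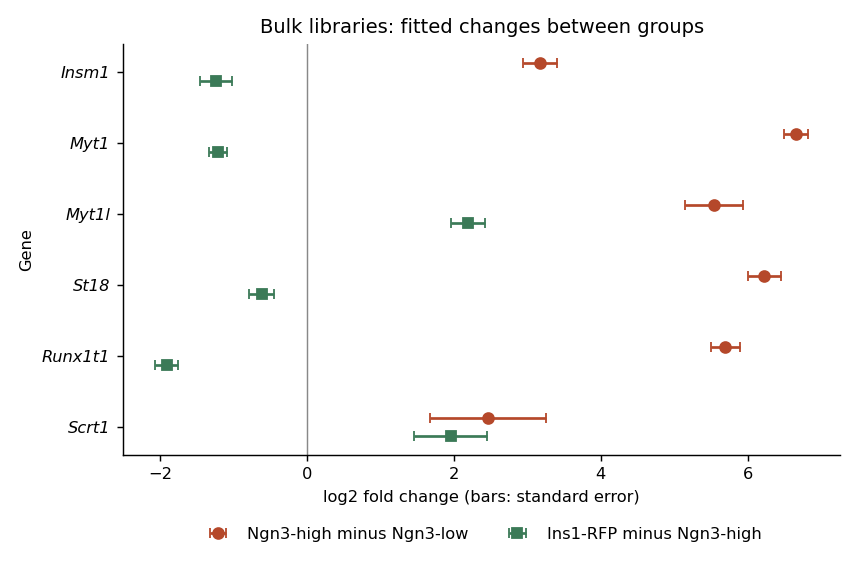
Fitted log2 fold change (x axis) with its standard error for each gene in Ngn3-high minus Ngn3-low (circles) and Ins1-RFP minus Ngn3-high (squares). All 6 circles lie above 0, from 2.46 to 6.66; the squares of Myt1l and Scrt1 lie above 0 and the other 4 below it.

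Levels of different genes were compared per length, as RPKM (CPM divided by the deposited gene length in kilobases). In Ngn3-high cells Insm1 stood highest at 241 ± 79.3 RPKM (SD, n = 2), followed by Myt1 at 111 ± 6.23 RPKM and St18 at 39.4 ± 4.07 RPKM. Runx1t1 followed at 33.8 ± 5.38 RPKM, Myt1l at 1.30 ± 0.353 RPKM and Scrt1 at 0.0995 ± 0.0362 RPKM. Each gene's libraries lay apart from those of its neighbours in this order, except those of St18 (36.6 and 42.3 RPKM) and Runx1t1 (30.02 and 37.6 RPKM), which overlapped. In Ngn3-low cells Insm1, at 28.4 ± 4.82 RPKM, stood above Myt1 at 1.16 ± 0.0404 RPKM, while Runx1t1 at 0.691 ± 0.0101 RPKM overlapped St18 at 0.538 ± 0.212 RPKM. In Ins1-RFP cells the order was Insm1 at 95.7 ± 9.28 RPKM, Myt1 at 45.02 ± 3.56 RPKM, St18 at 24.2 ± 1.12 RPKM, Runx1t1 at 8.49 ± 1.68 RPKM, Myt1l at 5.52 ± 0.0992 RPKM and Scrt1 at 0.360 ± 0.0435 RPKM, with no overlap between neighbours. Myt1l, far under Runx1t1 in Ngn3-high cells, stood close below it in Ins1-RFP cells. The authors' deposited table of pooled RPKM gave the same order, with Insm1 at 25.91, 231.54 and 102.58 RPKM and Myt1l at 0.03, 1.25 and 5.95 RPKM in Ngn3-low, Ngn3-high and Ins1-RFP cells.

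The relatives of these genes did not all move with them. The nearest relatives of Runx1t1, the corepressor genes Cbfa2t2 and Cbfa2t3, also rose and then fell, at a higher base level. Cbfa2t2 had 432 and 431 CPM in Ngn3-high libraries, against 114 and 113 CPM in Ngn3-low libraries, with a log2 fold change of 2.01 (SE 0.108, edgeR adjusted p = 1.66e-06). Its log2 fold change in Ins1-RFP against Ngn3-high cells was -2.13 (SE 0.108, edgeR adjusted p = 4.89e-06). Cbfa2t3 had log2 fold changes of 2.28 (SE 0.104, edgeR adjusted p = 7.47e-07) in Ngn3-high against Ngn3-low cells and -1.55 (SE 0.101, edgeR adjusted p = 1.34e-05) in Ins1-RFP against Ngn3-high cells. Runx1, a blood cell factor that is fused to Runx1t1 in a human leukaemia, had 0.712 and 0.335 CPM in Ngn3-high libraries, against 45.9 and 51.1 CPM in Ngn3-low libraries, where the white blood cell markers were also high. The part of blood cells in the Runx1 level was not tested. Over all genes tested, 4349 rose and 4729 fell of 15684 in Ngn3-high against Ngn3-low cells. In Ins1-RFP against Ngn3-high cells, 4087 rose and 3903 fell. These are the background for the counts of the lists. Of 5 tested genes in this list, 3 rose and 2 fell in Ngn3-high against Ngn3-low cells, and 0 rose and 3 fell in Ins1-RFP against Ngn3-high cells.

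Among the SNAG relatives of Insm1 and Scrt1, 4 of 7 listed genes were tested, of which 1 rose and 1 fell in Ngn3-high against Ngn3-low cells. Snai1, a repressor of epithelial genes, had 7.30 and 4.85 CPM in Ngn3-high libraries, against 2.42 and 1.06 CPM in Ngn3-low libraries (log2 fold change 1.85, SE 0.429, edgeR adjusted p = 0.00605). The Snai1 groups did not overlap, and 1 of 11 alternatives lost the call (adjusted p = 0.0678). Gfi1b, a factor of blood cells, had 0 reads in either Ngn3-high library and 15 and 13 in the Ngn3-low libraries. Insm2 and Scrt2, the nearest relatives, were not tested, with at most 4 reads in any bulk library.

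Genes for the complexes that Insm1 and Runx1t1 bind were mostly expressed at all stages. Of 11 genes of the Lsd1 and CoREST complex and its partners, 7 rose and 1 fell in Ngn3-high against Ngn3-low cells, with a median of 0.56. In Ins1-RFP against Ngn3-high cells 1 rose and 8 fell, with a median of -0.53, against 26.1% and 24.9% of all genes tested. Gse1, a subunit found with Lsd1, had 1097 and 872 CPM in Ngn3-high libraries, against 249.7 and 229 CPM in Ngn3-low libraries (log2 fold change 2.12, SE 0.173, edgeR adjusted p = 1.54e-05). Rcor2, a CoREST scaffold, rose by 1.41 (SE 0.115, edgeR adjusted p = 1.54e-05). The gene that fell was Rest, the repressor of neuronal genes, with 7.18 and 10.9 CPM in Ngn3-high libraries, against 176 and 172 CPM in Ngn3-low libraries (log2 fold change -4.21, SE 0.231, edgeR adjusted p = 1.84e-06). The Rest groups did not overlap, and in Ins1-RFP libraries it had 5.90 and 9.17 CPM. Of 9 NCoR and Sin3 genes, 2 rose and 0 fell in Ngn3-high against Ngn3-low cells, with a median of 0.08, a share of rises no higher than the 27.7% of all genes. Among them was Sin3b, a Sin3 scaffold gene, which rose by 0.83 (SE 0.151, edgeR adjusted p = 0.00163).

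Of the other endocrine transcription factors listed, all 18 rose in Ngn3-high against Ngn3-low cells, with a median of 3.72. Neurog3, whose reporter set the gates, is among the 18. The list was also chosen with earlier results of these data known, so the count is a description. In Ins1-RFP against Ngn3-high cells 2 rose and 14 fell, against 26.1% and 24.9% of all genes tested. The largest rises of these factors in Ngn3-high against Ngn3-low cells were those of Fev, by 8.66 (SE 0.230, edgeR adjusted p = 2.83e-07), and Neurod1, by 6.74 (SE 0.188, edgeR adjusted p = 2.83e-07). Of 6 tested Notch targets and trunk factors, 0 rose and 5 fell, among them Onecut1, by 4.30 on the log2 scale (SE 0.363, edgeR adjusted p = 1.87e-05), and Hes1, by 3.37 (SE 0.418, edgeR adjusted p = 0.000184).

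Single cells of both genotypes were compared between the gates in the same way. Counts were summed over the cells of a group and given as CPM, with a 95% Poisson interval that covers counting error only. A gene was counted as detected in a cell at 10 CPM or more, which is at least 4 reads in the shallowest cell. In Jmjd3-deleted cells 5 of 6 genes were at least 2-fold higher in the Ngn3-high gate by log2(CPM + 1), against 15.3% of the genes with 5 CPM in either group, and in WT cells 5 of 6, against 14%. The other gene, Scrt1, had 0 reads in all 4 groups, under a limit of 3 counts that is 0.0575 to 0.093 CPM per group. Its level in the bulk Ngn3-high libraries, from 11 reads, lay above that limit. The single cells thus did not show the bulk level of Scrt1, and the cause was not tested. In the Ngn3-low gate, Myt1, Myt1l and St18 stood under 5 CPM in both genotypes, as did Insm1 in deleted cells. There they met the 5 CPM rule only through the Ngn3-high gate, where they are high, so these counts are a description. The 2 title numbers that both gates share gave the same direction for all 5 genes in both genotypes.

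Of the 4 genes with reads in both gates, Myt1 had the largest ratio, 868 in WT cells with a counting interval of 421 to 2159. It reached 10 CPM in 41 of 44 deleted Ngn3-high cells (93.2%, Clopper-Pearson interval 81.3 to 98.6%), against 0 of 69 deleted Ngn3-low cells, which by the rule of 3 counts allows a share of up to 4.35%. It did so in 53 of 59 WT Ngn3-high cells (89.8%, 79.2 to 96.2%), against 0 of 49 WT Ngn3-low cells, which by the same rule allows up to 6.12%. Nearly every Ngn3-high cell thus carried Myt1, and its summed level in WT cells was 188 CPM (184 to 192) in the Ngn3-high gate, against 0.217 CPM (0.0870 to 0.446) in the Ngn3-low gate. Insm1, in turn, was the most widely detected of the 6 genes in WT Ngn3-high cells, at 10 CPM in 56 of 59, against 6 of 49 WT Ngn3-low cells. Its summed level was 154 CPM (150.2 to 158) in WT Ngn3-high cells, against 6.62 CPM (5.76 to 7.57) in WT Ngn3-low cells. The ratio was 23.3 (counting interval 20.3 to 26.8) in WT cells and 44.5 (37.7 to 52.9) in deleted cells. The bulk libraries gave a ratio of 8.32 over summed reads.

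St18 and Runx1t1 were detected in fewer Ngn3-high cells but at high levels there. St18 stood at 248 CPM in deleted Ngn3-high cells, against 2.72 CPM in deleted Ngn3-low cells, and at 231 CPM in WT Ngn3-high cells, against 0.897 CPM in WT Ngn3-low cells. In WT Ngn3-high cells its lower quartile was 1.91 CPM and its upper quartile 336 CPM, so that cells were split between little and much. It was detected in 42 of 59 WT Ngn3-high cells (71.2%, 57.9 to 82.2%), and in 1 cell of each Ngn3-low group. Myt1l was sparse, with 7.28 CPM (6.38 to 8.28) in deleted and 9.70 CPM (8.79 to 10.7) in WT Ngn3-high cells and 0 reads in both Ngn3-low groups. Against a floor of 3 counts per group it was at least 127-fold higher in deleted and at least 104.5-fold higher in WT Ngn3-high cells. One cell in each group held most of it, with 151 of 235 reads in deleted and 235 of 422 reads in WT Ngn3-high cells. Without these cells, a choice made after seeing the data, the levels were 2.67 CPM in deleted and 4.38 CPM in WT Ngn3-high cells and the bounds 46.4-fold and 47.2-fold. It was detected in 5 of 44 deleted and 12 of 59 WT Ngn3-high cells.

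Runx1t1 was also found in a larger share of Ngn3-low cells than the other genes. It stood at 333 CPM (327 to 338) in WT Ngn3-high cells, against 7.21 CPM (6.31 to 8.19) in WT Ngn3-low cells. It was detected in 29 of 44 deleted Ngn3-high cells, against 19 of 69 deleted Ngn3-low cells (27.5%, 17.46 to 39.6%), and in 42 of 59 WT Ngn3-high cells, against 11 of 49 WT Ngn3-low cells (22.4%, 11.8 to 36.6%). Of these 30 Ngn3-low cells 14 had Neurog3 at 10 CPM, against 47 of the other 88, while Myt1 and Neurod1 reached 10 CPM in 0 Ngn3-low cells of either kind. Markers of acinar cells summed to 100 CPM or more in 12 of the 19 deleted and 4 of the 11 WT Ngn3-low cells with Runx1t1, against 12 of the other 50 deleted and 10 of the other 38 WT Ngn3-low cells. Mesenchyme markers reached that level in 1 of the 30. The part of these cells in the Runx1t1 level of the Ngn3-low gate was not tested.

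**Figure D3:**
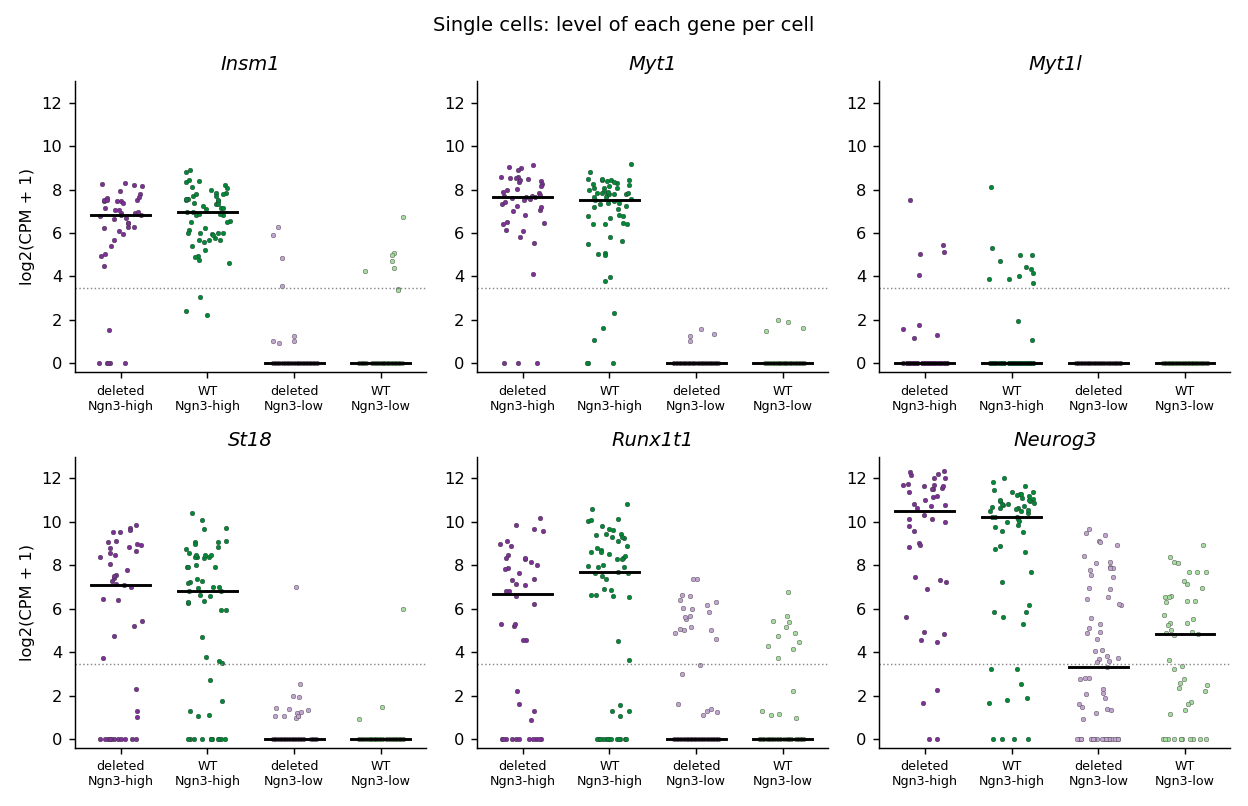
Level of each gene as log2(CPM + 1) (y axis) in each cell of the 4 groups, with the Jmjd3-deleted group left of WT in each gate; each dot is a cell, black bars are medians and the dotted line marks 10 CPM. Insm1 and Myt1 lie above the line in most Ngn3-high cells, St18 and Runx1t1 are split, Myt1l is sparse, and more Ngn3-low cells lie above the line for Runx1t1 than for any of the other 4, and Neurog3 is shown for the gate.

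Within the Ngn3-high cells of both genotypes together, detection of the genes at 10 CPM was nested. Myt1 and Insm1 were detected in 94 cells each and together in 88. All 72 cells with St18 and all 71 cells with Runx1t1 also had Myt1, whereas 22 and 23 cells had Myt1 without them. All 17 cells with Myt1l also had Myt1, St18 and Runx1t1. The order from most to least inclusive at this threshold was Myt1, then St18 and Runx1t1, then Myt1l. At thresholds of 1 and 50 CPM, tried after seeing the data, the nesting was not complete. At 1 CPM, 1 of 79 cells with St18 and 1 of 78 with Runx1t1 lacked Myt1, and at 50 CPM 3 of 64 cells with either did. St18 and Runx1t1 themselves overlapped without nesting, with 64 cells having both, 8 having St18 alone and 7 having Runx1t1 alone. Insm1 did not contain them fully, as 3 cells had St18 and 5 had Runx1t1 without it. A transcript missed in a cell counts as not detected, so low genes such as Myt1l are found in fewer cells at the same threshold.

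At 10 CPM, the bHLH factor gene Neurod1 bounded the same cells. All 72 cells with St18 and 70 of 71 cells with Runx1t1 had Neurod1, as did all 17 with Myt1l. Of the 14 Ngn3-high cells without Neurod1, 11 had Insm1 and 7 had Myt1, while 0 had St18 and 1 had Runx1t1. At 1 CPM, tried after seeing the data, 1 of 79 cells with St18 and 2 of 78 with Runx1t1 lacked Neurod1. At 50 CPM 0 of 64 cells with either lacked it. Toward Neurog3 the pattern differed: 8 of 17 cells with Myt1l and 14 of 72 with St18 had no Neurog3 at 10 CPM, and all 14 cells without Neurog3 had St18. By number of genes per cell, 20 of 44 deleted and 26 of 59 WT Ngn3-high cells had 4 of the 6, and 4 deleted and 12 WT cells had 5. Of Ngn3-low cells, 47 of 69 deleted and 34 of 49 WT had 0.

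**Figure D4:**
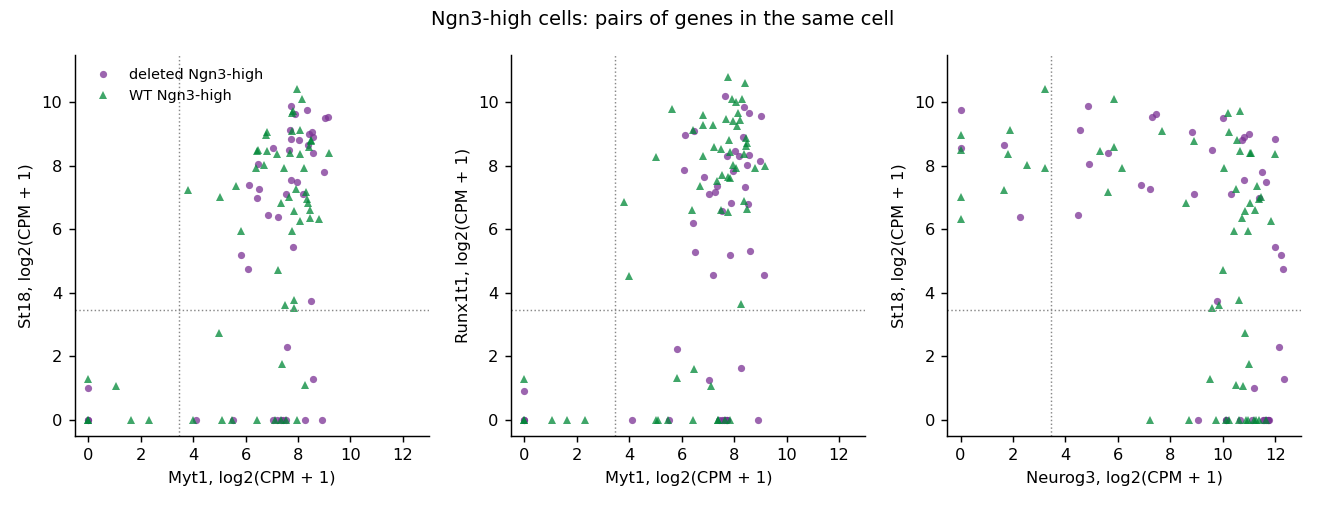
Level in the same Ngn3-high cell, as log2(CPM + 1), of St18 against Myt1, Runx1t1 against Myt1 and St18 against Neurog3; circles are Jmjd3-deleted and triangles WT cells, and dotted lines mark 10 CPM. No cell lies above the line for St18 or Runx1t1 and below it for Myt1, while cells below the line for Neurog3 all lie above it for St18.

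Genes with the most similar levels across Ngn3-high cells were ranked by the lower of the Pearson r in 44 deleted and 59 WT cells, over 9017 genes detected in at least 20% of the cells of each group. Cells of a group share their sort and library preparation, and levels at 0 weigh on r, so these values are descriptions. St18 was most like Chgb, a granule protein gene (lower r 0.81), Fev (0.78) and Scg3, another granule gene (0.78). Runx1t1 was most like St18 (0.64), Neurod1 (0.63) and Cystm1 (0.62), at ranks 21, 6 and 7 by rank correlation. Among the genes most like Myt1 were Cacna2d1, a calcium channel subunit gene (0.74), and Vwa5b2 (0.71), and with rank correlation they stood at ranks 8 and 119. For Insm1 the highest value was 0.38, with Pclo, so no gene followed it closely. Neurog3 ran against St18, with r of -0.50 in deleted and -0.40 in WT cells, and against Runx1t1, with -0.32 and -0.27. Myt1l and Scrt1 were detected in too few cells for such a ranking.

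Between genotypes 0 of 6 genes were at least 2-fold apart in Ngn3-high cells, against 5.72% of genes in either direction. Runx1t1 had the largest difference of the 5 detected genes. Jmjd3-deleted Ngn3-high cells had 201 CPM of Runx1t1 (196 to 206), against 333 CPM (327 to 338) in WT cells, a log2 ratio of -0.72. By title number, it stood at 232, 208 and 70.3 CPM in deleted cells of numbers 1, 5 and 6, against 349, 243 and 360 CPM in WT cells, lower in all 3. The 70.3 CPM came from 6 cells, and the log2 ratio was -0.52 to -1.02 over the alternative settings, passing 2-fold without title number 1. Detection at 10 CPM was in 29 of 44 deleted (65.9%, 50.1 to 79.5%) and 42 of 59 WT cells (71.2%, 57.9 to 82.2%). Insm1 stood at 125 CPM (121 to 129) in deleted and 154 CPM in WT Ngn3-high cells, lower in all 3 title numbers by a log2 ratio of -0.06 to -0.43.

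Myt1, St18 and Myt1l had no common direction in Ngn3-high cells. Myt1 stood at 213 CPM (208 to 218) in deleted and 188 CPM in WT cells, St18 at 248 CPM (242 to 253) in deleted and 231 CPM (226 to 235) in WT cells, and Myt1l at 7.28 CPM in deleted and 9.70 CPM in WT cells. Each was higher in some shared title numbers and lower in others, so that their differences lay within the spread between these numbers. The log2 ratio of St18 was 0.10, and -0.26 without title number 1. Neurod1 was 542 CPM in deleted and 774 CPM in WT Ngn3-high cells, lower in all 3 title numbers. Neurog3 was 1735 CPM in deleted and 1256 CPM in WT Ngn3-high cells, higher in all 3.

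In Ngn3-low cells, 1 of 6 genes was at least 2-fold higher and 1 at least 2-fold lower in the deleted group, against 4.36% of genes in either direction. That share covers genes at 5 CPM or more in either group. Of the 6 only Runx1t1 and Insm1 reached 5 CPM here, and they are the 2 counted. Runx1t1 stood at 19.3 CPM (18.1 to 20.5) in deleted Ngn3-low cells, against 7.21 CPM (6.31 to 8.19) in WT cells, a log2 ratio of 1.31. The ratio was 0.86 to 1.71 over the alternative settings and fell short of 2-fold without title number 1 (0.86) and with 5 CPM added (0.99). By title number it stood at 30.2, 12.1 and 25.2 CPM in deleted cells of numbers 1, 2 and 5, against 5.38, 5.35 and 9.15 CPM in WT cells, higher in all 3. WT cells of numbers 3 and 4, which deleted cells lack, had 1.99 and 15.3 CPM, so the WT values reached above the lowest deleted one. Runx1t1 reached 10 CPM in 27.5% of deleted and 22.4% of WT cells, also after each cell was thinned to 380478 reads, and 50 CPM in 10 of 69 deleted and 1 of 49 WT cells. Summed acinar markers were 1352 CPM in deleted and 1185 CPM in WT Ngn3-low cells, and their part in the difference was not tested.

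Insm1 was the gene at least 2-fold lower, at 2.80 CPM (2.36 to 3.29) in deleted and 6.62 CPM (5.76 to 7.57) in WT Ngn3-low cells, a ratio of 0.423 that lay at the boundary of the 2-fold rule once 1 CPM was added. It was lower in 2 and higher in 1 of the 3 shared title numbers, and 96 of its 214 WT reads came from 1 cell in number 5. St18 stood at 2.72 CPM in deleted and 0.897 CPM in WT Ngn3-low cells, most of it from 1 cell in each group, and its log2 ratio changed sign to -0.61 without title number 1. Myt1 had 4 reads in deleted and 7 in WT Ngn3-low cells, and Myt1l had 0 in both, so a difference was not detectable at this depth.

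**Figure D5:**
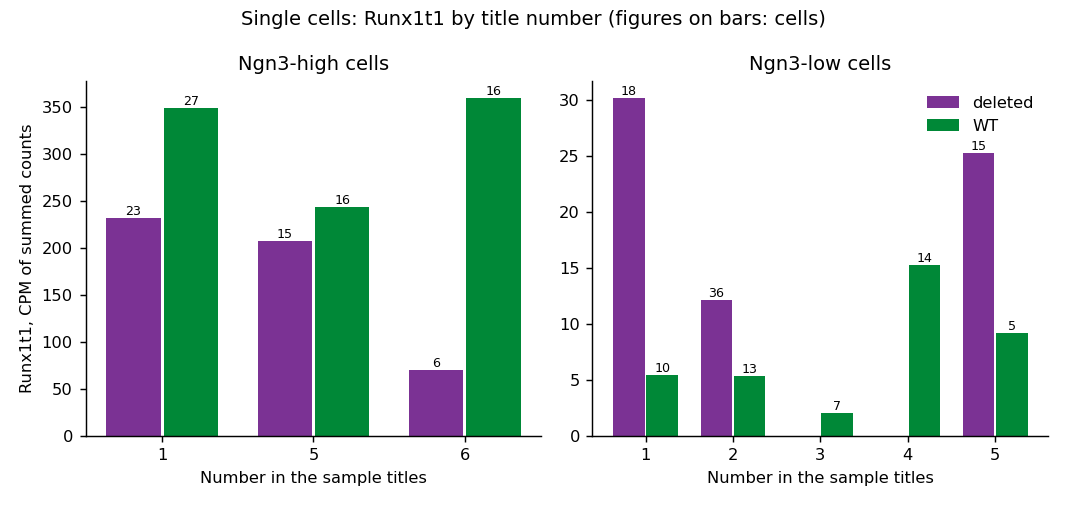
Runx1t1 as CPM of summed counts (y axis, scales differ between panels) for each number in the sample titles, Jmjd3-deleted left of WT, in Ngn3-high cells and Ngn3-low cells; the number on a bar is its count of cells. Deleted bars are lower than WT bars at each shared number in Ngn3-high cells and higher at each shared number in Ngn3-low cells.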

How the data were processed

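Gene counts and gene lengths were used as the authors deposited them. Reads were aligned with TopHat2 2.1.0 and Bowtie2 to mm10 and counted with HTSeq 0.6.0, per the submitters' processing notes, and no annotation or strand setting is named there, so genes that overlap on opposite strands may share reads. The labels' protocols give poly(A) selection and a directional kit for bulk RNA, and Smart-seq2 with added ERCC RNA for cells. RPKM values pooled over libraries were deposited by the authors, and per-library RPKM was computed here from the counts and the deposited lengths.

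The 92 ERCC rows were left out of every total. Bulk libraries were fitted together with edgeR 4.0.16 (R 4.3.3; TMM factors, filterByExpr, quasi-likelihood test) and p-values were adjusted over all genes tested. Levels in CPM use total counts without TMM, and the SE is the log2 fold change divided by the root of F. DESeq2 1.42.0 was an alternative, beside total counts, no filter on low counts, a replicate block, a fit of only the 2 groups compared, and leaving out each library. Single-cell counts were summed per group, with 1 CPM added before log2, and carry no test, since cells are not replicates. Genes at 5 CPM or more in either group enter their background shares. Intervals and floors (3 counts) cover counting error only, as reads carry no molecular identifiers. The deposited set of 31 ChIP samples was not used here.

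The members and the gene lists were chosen with earlier results of these data known. Named genes are all members and their relatives, and in each other list up to 2 of the largest rises and 2 of the largest falls called in Ngn3-high against Ngn3-low cells. Likeness names 3 genes per member. Th was named after its values were seen, and some genes that these rules name are not reported here.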

Additional observations from a re-analysis of the deposited data

Results flagged for a closer look

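Runx1t1 differed between genotypes in opposite directions in the 2 gates, which is why it is listed here. The log2 ratio of Jmjd3-deleted over WT, with 1 CPM added, was 1.31 in Ngn3-low cells and -0.72 in Ngn3-high cells. Over the alternative settings it was 0.86 to 1.71 in Ngn3-low cells and -1.02 to -0.52 in Ngn3-high cells. Each direction was shown by all 3 shared title numbers, with 1.05 to 2.29 in Ngn3-low cells and -2.34 to -0.23 in Ngn3-high cells. The difference between the gates was not tested, because each group is 1 sample and title numbers are not known to be animals.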

How the results depend on the processing

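No call of the bulk fit and no single-cell ratio past 2-fold changed sign under any alternative run; the ratio of St18 in deleted against WT cells, short of 2-fold, did so without title number 1, to -0.61 in Ngn3-low and -0.26 in Ngn3-high cells. In bulk, of 132 counts 129 stayed within 1.5 times and 3 moved, and of 197 values for single genes 187 kept their call and 10 lost it, 9 of them for Scrt1 and 1 for St18. The 3 were the members called higher in Ins1-RFP against Ngn3-high cells, 2 as reported and 1 with DESeq2, and 1 to 2 when each library was left out. With the replicate number as a block, 6 of 6 members were still called higher in Ngn3-high against Ngn3-low cells. Genes higher in all then numbered 4532, against 4349 without the block, and Insm1 had 3.14. In the settings where Scrt1 lost its call, fewer than 6 members were called higher, a step that stays within 1.5 times. Deviations of same-numbered libraries correlated at 0.032 to 0.091 between pairs of groups. With 2 libraries per group, such values cannot show whether same-numbered libraries share an origin. In single cells, the count of members at least 2-fold higher in Jmjd3-deleted against WT Ngn3-low cells, 1 as reported, was 2 with 0.1 CPM added or without title number 2, 4 or 5, and 0 with 5 CPM added or without title number 1, where Runx1t1 had 0.99 and 0.86. The count at least 2-fold lower there, also 1, was 0 with 5 CPM added, with the mean of single-cell CPM, with TMM factors or without title number 5. These counts were not limited to members at 5 CPM. Where 2 were counted as higher, the second was St18, which stood under 5 CPM in both Ngn3-low groups. In Ngn3-high cells, 1 member was at least 2-fold lower without title number 1, against 0 as reported. The cause was not tested. Of 204 single-cell log2 ratios of single genes 59 moved, of 72 shares of cells 11 moved with a threshold of 1 or 50 CPM, and of 30 likeness values 13 moved with rank in place of Pearson correlation. Reads were few for Scrt1 in bulk, and few or absent for Myt1 and Myt1l in single Ngn3-low cells, which limits their comparisons.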
